A study of Mus musculus with 6 samples.

Results

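Immediate early genes are switched on within minutes of a stimulus without any need for new protein synthesis. The 10 described here are Egr1, Egr2, Fos, Fosl2, Jun, Junb, Jund, Ier2, Ier5 and Dusp1, spelled EGR1, EGR2, FOS, FOSL2, JUN, JUNB, JUND, IER2, IER5 and DUSP1 in the authors' deposited tables. They were chosen by symbol, ignoring case, from the 13970 genes listed in the 3 gene tables of the study, with their log2 ratios in the single contrast of the study already known, so those ratios are a description and were not tested. All 10 were among the 13278 genes listed for both extractions. The 75 genes of the standard-only table and the 617 of the optimized-only table held 0 of them.

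The study sequenced RNA from heavy complexes, that is ribosomes, polyribosomes and other RNA-protein particles that pellet through a cushion of 1 M sucrose. The cells were untreated primary astrocytes of newborn C57BL/6JOlaHsd mice, with males and females pooled and the number of animals not stated. In the optimized extraction (3 libraries, batches A, B and C) cells were lysed on the plate for 5 min on ice in 2% DDM, a mild detergent, with 200 mM KCl. In the standard extraction (3 libraries, batches A, B and C) cells were first scraped into PBS with cycloheximide, an inhibitor of translation elongation, and kept as pellets at -80 °C. The thawed pellets were then lysed in 1% Triton X-100 and 1% sodium deoxycholate with 50 mM KCl. Cycloheximide at 100 µg/ml was in both lysis buffers, and 12 µg of RNA was loaded in both groups. The way of collecting the cells, freezing, detergent and salt all differ between the groups, so their parts in any difference cannot be told apart.

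The values are log2 ratios of optimized over standard extraction, 1 per gene, from the authors' deposited table. Neither values per library nor errors come with them. Depth and replicate spread are therefore unknown, 0 genes were tested across libraries, and no difference given here is shown to exceed replicate error. Over all 13278 shared genes the median of these deposited ratios was 1.09, called the all-gene median from here on, and gene values are also given relative to it. The scaling behind this general shift is not known. Folds higher or lower in the optimized extraction thus describe the deposited ratios and need not be changes in the amount of RNA. In such pellets of many cells, a lower value from fewer cells and one from less RNA per cell cannot be told apart. Of the astrocyte markers, 10 of 10 were listed for both extractions. Their median ratio was 0.97, and 8 of the 10 lay below the all-gene median. They ranged between 0.61 and 1.18 in the authors' deposited table. Of markers of other cell types, 5 of 5 fibroblast and mural, 6 of 8 oligodendrocyte lineage, 3 of 7 neuronal, 2 of 4 endothelial and 1 of 8 microglial genes had a ratio. Their list medians were also below the all-gene median, at 0.65 (fibroblast and mural), 0.94 (oligodendrocyte lineage), 0.72 (neuronal), 0.61 (endothelial) and 0.85 (microglial, 1 gene). The highest and lowest ratios of these lists in the deposited table were 1.27 and 0.29, and the part of such cells in the results was not tested. Of the neuronal markers without a ratio, Syn1 and Syp were in the standard-only table and the others in none of the 3 gene tables.

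The 10 genes act at successive steps of 1 response. Growth factors, transmitters and mechanical or chemical stress reach MAP kinases, which phosphorylate factors already bound to immediate early promoters, such as SRF with its partners and CREB. EGR proteins are zinc finger transcription factors. FOS proteins pair with JUN proteins through leucine zippers to form the AP-1 factor. The IER proteins are small nuclear regulators, and DUSP1 is a phosphatase that switches MAP kinases off again. In astrocytes most of these genes are known as markers of a recent stimulus, whereas Jund is known for steady expression without one. Many of their mRNAs are short-lived, in part through AU-rich elements in the tails of the transcripts.

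AU-rich elements were read from the GENCODE M21 transcripts (GRCm38) and are shown because mRNAs on both sides of the median carry them. Each line is 30 bases from the 3′ untranslated region, with every ATTTA pentamer (AUUUA in the RNA) in capitals.
Fos: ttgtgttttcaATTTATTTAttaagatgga
Egr2: tcagtgtatatccATTTAgattttgtgtat
Jun: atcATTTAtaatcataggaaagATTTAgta
Dusp1: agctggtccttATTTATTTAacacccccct
Fosl2: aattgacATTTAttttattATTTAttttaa
Fos and Dusp1 both carry a pair of overlapping pentamers in these windows. The Egr2 window holds a single pentamer, whereas those of Jun and Fosl2 hold separate pairs.

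The 10 genes comprised 4 with low ratios and 6 near or above the middle of all genes. Egr1, Fos, Egr2 and Ier2 were the low 4, and the other 6 lay within 0.5 of the all-gene median on the log2 scale, where 89.3% of the shared genes lay. The median log2 ratio over the 10 genes was 1.08, with quartiles at 0.42 and 1.31. Their SD was 0.85, against 0.33 over all shared genes in the deposited table. Values at least 2-fold higher in the optimized extraction were given for 6 of the 10, against 63% of all shared genes. The same 6 genes made up this count, and none of the 10 was at least 2-fold above the median, as 0.678% of the shared genes were. A value at least 2-fold lower was given for 1 of the 10 (0.00753% of the shared genes), and values at least 2-fold below the median for 2 of the 10 (0.587% of the shared genes). These shares use the contrast with which the genes were chosen, and nothing is read from them.

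**Figure D1:**
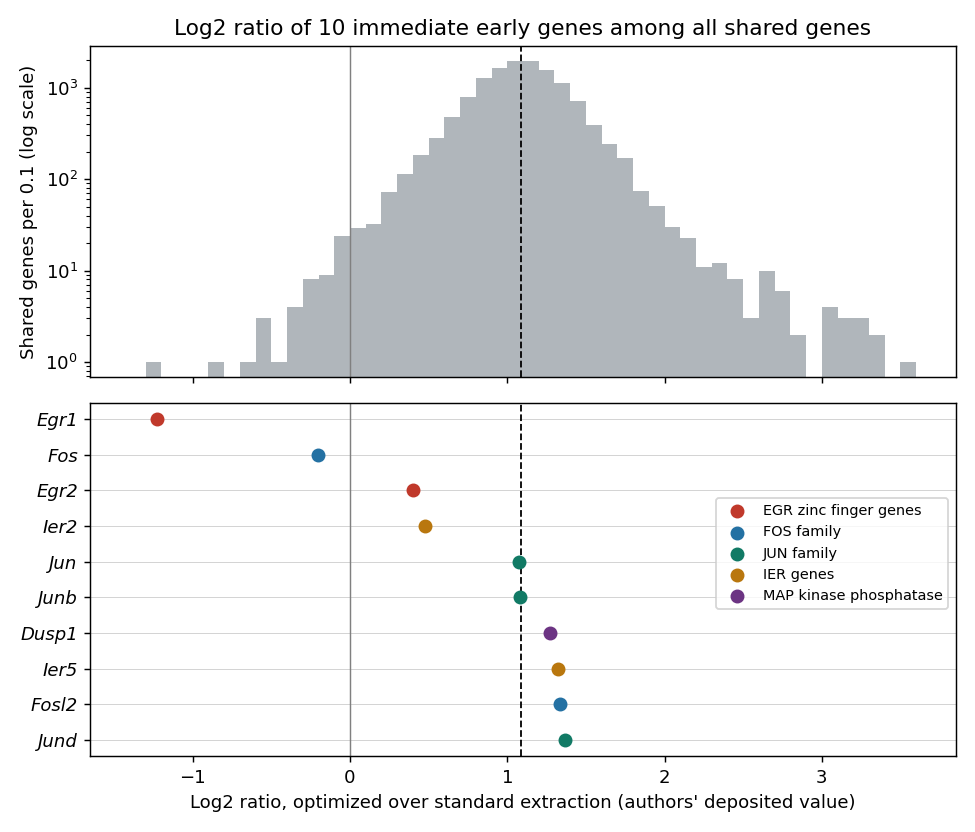
Log2 ratios (optimized over standard extraction) from the authors' deposited table, with a histogram of the 13278 shared genes above (log axis, bins of 0.1) and the 10 immediate early genes below, coloured by family. The dashed line is the all-gene median (1.09) and the grey line is 0; Egr1, Fos, Egr2 and Ier2 lie well to the left of the dashed line, from -1.23 to 0.48, and the other 6 between 1.07 and 1.36.

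The EGR zinc finger genes were both low. Egr1 (ENSMUSG00000038418, mm10 chromosome 18, 34859823 to 34864984, plus strand), whose protein binds GC-rich promoters, had a log2 ratio of -1.23 in the authors' deposited table. That is a 2.34-fold lower value in the optimized than in the standard extraction, and 4.98-fold below the all-gene median. The next gene above Egr1 in the deposited table, the small nucleolar RNA gene Gm24119, was listed at -0.82, a gap of 0.41, and it was followed by Prl2c2 (-0.68) and Wipf3 (-0.59). Egr2 (ENSMUSG00000037868, chromosome 10, 67535475 to 67542188, plus strand), which is also known for its role in myelination of peripheral nerve, came to 0.40 in the authors' deposited table. Its value was thus 1.32-fold higher in the optimized extraction and 1.61-fold below the median, and 2.23% of the shared genes were lower. The ratios of Egr2 and Egr1 in the deposited table differed by 1.62 on the log2 scale.

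Fos and Fosl2 lay on opposite sides of the median. Fos (ENSMUSG00000021250, chromosome 12, 85473890 to 85477273, plus strand), the founding member of its family, had a ratio of -0.21 in the authors' deposited table, at rank 18 from the lowest. That value was 1.15-fold lower in the optimized extraction and 2.45-fold below the median. Egr1 and Fos were the 2 of the 10 with a ratio below 0, where 52 shared genes (0.392%) lay, 41 of them protein-coding. Fosl2 (ENSMUSG00000029135, chromosome 5, 32135801 to 32157842, plus strand), which codes for the FOS-related protein FRA2, had a ratio of 1.34 in the authors' deposited table, 2.53-fold higher in the optimized extraction. The ratio of Fosl2 was 2.91 times that of Fos on the linear scale.

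Of the JUN family, Jun and Junb lay close to the all-gene median and Jund lay higher. Jun (ENSMUSG00000052684, chromosome 4, 95049034 to 95052222, minus strand), which codes for the main DNA-binding partner of FOS, stood at 1.07 in the authors' deposited table. Junb (ENSMUSG00000052837, chromosome 8, 84974484 to 84978718, minus strand), a JUN protein that can dampen JUN activity, stood at 1.08 in the same deposited table. These values are 2.11-fold (Jun) and 2.12-fold (Junb) higher in the optimized extraction, at distances of -0.014 (Jun) and -0.0046 (Junb) from the all-gene median on the log2 scale. Jund (ENSMUSG00000071076, chromosome 8, 70698949 to 70700616, plus strand), the JUN gene known for steady expression without a stimulus, was the highest of the 10, at 1.36 in the authors' deposited table. Its deposited ratio exceeded that of Jun by 0.29 and that of Junb by 0.28 on the log2 scale. Genes next to Jund in the deposited order were Josd1 (1.36), Pax6 (1.36) and Wdr73 (1.36) just below and Nudt16 (1.36), Prox2 (1.37) and Gmeb1 (1.37) just above, so Jund lay in a dense part of the distribution, with 84.3% of the shared genes lower.

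The IER genes were split, and Dusp1 lay among the higher members. Ier2 (ENSMUSG00000053560, chromosome 8, 84661331 to 84662852, minus strand), a nuclear immediate early protein gene, had a ratio of 0.48 in the authors' deposited table. It was 1.39-fold higher in the optimized extraction and 1.53-fold below the all-gene median, and 428 shared genes (3.22%), 4 of them members, were as low or lower. Ier5 (ENSMUSG00000056708, chromosome 1, 155096361 to 155099636, minus strand), whose protein acts on heat shock factor HSF1, had one of 1.32 in the authors' deposited table. Ier5 exceeded Ier2 by 0.85 on the log2 scale of the deposited ratios. Dusp1 (ENSMUSG00000024190, chromosome 17, 26505590 to 26562128, minus strand), the phosphatase that ends p38 and JNK signalling, stood at 1.27 in the authors' deposited table, 2.42-fold higher in the optimized extraction. In increasing order the deposited log2 ratios thus ran Egr1, Fos, Egr2, Ier2, Jun, Junb, Dusp1, Ier5, Fosl2 and Jund. Above Egr2 the widest step in that order was 0.60, between Ier2 and Jun. With no error for any gene it is not known which neighbours differ beyond replicate spread. Counted below the all-gene median were 6 of the 10 (50% of the shared genes by construction), including Jun and Junb, which lay just under it.

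Other genes overlap some members. Jun and Jund each overlap an annotated antisense gene (Junos and Gm11175) that has no value here. The annotated span of Junb overlaps that of Prdx2 on the opposite strand, which the authors' deposited table gave as 1.04. The span of Dusp1 overlaps Ergic1 on the opposite strand (1.09 in the deposited table). Prdx2 and Ergic1 are given for their overlap alone. The transcripts of Junb and Dusp1 with the longest coding sequence do not reach Prdx2 and Ergic1, and the overlap lies in the rest of their annotated spans. The libraries were made with a strand-specific kit, but whether counting used strand is not stated in the labels. Where counted exons of 2 such genes overlap, their reads may therefore not have been told apart. Within the Dusp1 span 2 further genes lie on the same strand, and no other member has such an overlap. The 4 low genes, Egr1, Fos, Egr2 and Ier2, overlap no other annotated gene.

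Genes related to the immediate early response, upstream genes that are not themselves immediate early among them, mostly lay near the middle of all genes. Of 144 genes in 7 lists (partners, relatives, other immediate early genes and upstream factors), 130 had a ratio. The median of these deposited ratios was 1.16 (quartiles 1.03 and 1.28). Within 0.5 of the all-gene median lay 127 of the 130 (97.7%), against 89.3% of all shared genes. Arc, whose product remodels the actin cytoskeleton and synapses, was the single one of the 130 as low as Ier2 or lower, at 0.17 in the authors' deposited table. The other 2 outside the range were Zfp36l1, which codes for a protein that destabilises AU-rich mRNAs (0.56 in the deposited table), and the cytokine signalling inhibitor gene Socs3 (1.74 in the deposited table). Arc and Socs3 are from the list of immediate early effectors and Zfp36l1 is from that of other immediate early regulators. Of the 130, 101 (77.7%) were at least 2-fold higher in the optimized extraction, against 63% of all shared genes, the share to set beside the 2-fold counts of each list given next. None of the 130 was at least 2-fold lower (0.00753% of all shared genes) or at least 2-fold below the median (0.587%). With no error for any gene, these counts are descriptions and single out no list.

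**Figure D2:**
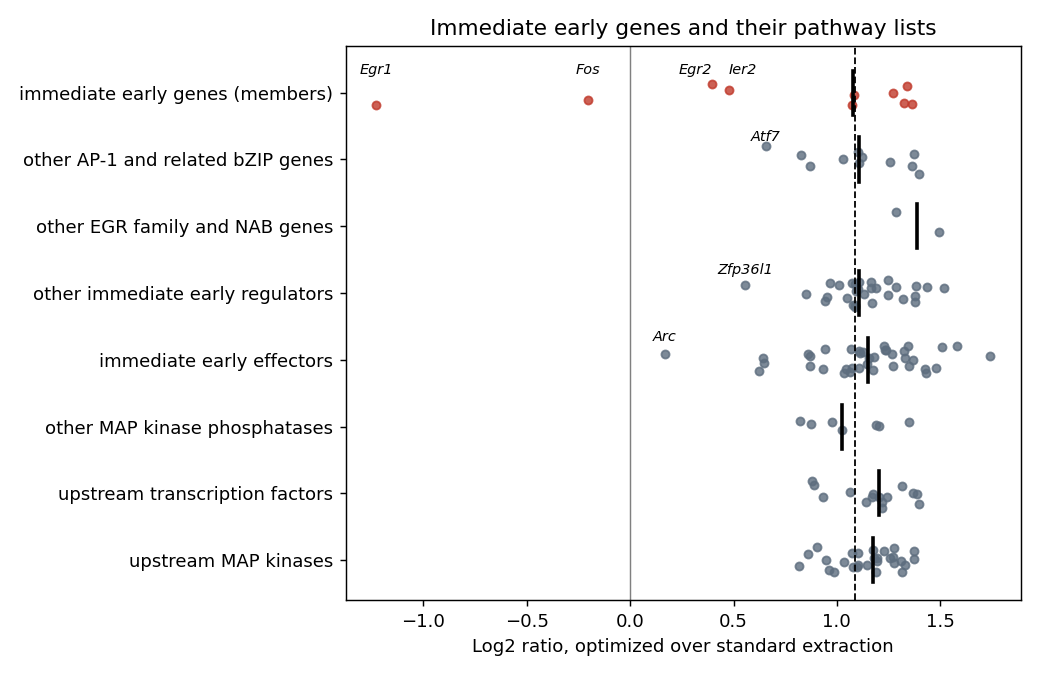
Log2 ratios (optimized over standard extraction, authors' deposited table) of the 10 members, in red, and of the shared genes of the 7 pathway lists, in grey. Each point is 1 gene, offset vertically for legibility, the short black bars are list medians, the dashed line is the all-gene median (1.09) and the grey line is 0; outside the members, Arc at 0.17 is the lowest point.

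Among other AP-1 and related leucine zipper genes, 11 of 16 had a value, with a median of 1.11, and 7 lay above and 4 below the all-gene median. Of the 11, 8 were at least 2-fold higher. Atf7 (0.66) and Maf (0.87) were among the lowest, and the highest were the small MAF genes Mafg (1.36), Maff (1.37) and Mafk (1.40), all in the authors' deposited table. Of stimulus-induced relatives of the low members, chosen after their values were seen, the authors' deposited table gave 1.11 for Fosb, 1.03 for Fosl1 and 1.10 for Atf3. The EGR corepressor genes Nab1 (1.28) and Nab2 (1.49) were the 2 listed of 5 in the other EGR family list, and both deposited ratios exceeded the all-gene median. Egr3 and Egr4 had no value here.

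Of 30 other immediate early regulators, 29 had a value. Their median was 1.11, with 17 above and 12 below the all-gene median, and 24 were at least 2-fold higher. After Zfp36l1, the lowest in the authors' deposited table were the vascular and lymphoid factor gene Klf2 (0.85) and the clock gene Per1 (0.94). The antiproliferative gene Btg1 (1.52) and the inhibitor-of-differentiation genes Id3 (1.43) and Id2 (1.38) were the highest in the authors' deposited table.

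The effector list held 41 enzymes, signalling and secreted proteins, of which 38 had a value and Il6 was in the optimized-only table. Its median was 1.15, with 24 above and 14 below the all-gene median and 29 at least 2-fold higher. After Arc, the growth factor gene Areg (0.62) and the plasminogen activator gene Plat (0.64) were lowest in the authors' deposited table. Socs3, the chemokine gene Cxcl1 (1.58) and the stress gene Gadd45g (1.51) were highest in the authors' deposited table. Among the 7 listed of 9 other MAP kinase phosphatases the median was 1.03, with 3 above and 4 below the all-gene median and 4 at least 2-fold higher. Dusp4 (0.82), Dusp6 (0.87) and Dusp8 (0.98) were lowest in the authors' deposited table, and Dusp16 (1.19), Dusp10 (1.20) and Dusp7 (1.35) highest.

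Upstream genes had ratios of 0.82 or more in the deposited table. All 15 upstream transcription factor genes had a value, with a median of 1.21, 11 above and 4 below the all-gene median and 12 at least 2-fold higher. The factor genes Mef2c (0.88), Mrtfb (0.89) and Mef2a (0.93) were lowest in the authors' deposited table. The CREB relative Crem (1.37) and the SRF partner genes Elk1 (1.39) and Elk3 (1.40) were highest in the authors' deposited table. All 28 upstream MAP kinase genes also had a value, with a median of 1.18, 19 above and 9 below, and 22 at least 2-fold higher. Mapk13 (0.82), Rps6ka3 (0.86) and Map2k6 (0.91) were lowest in the authors' deposited table, and Araf (1.33), Map2k2 (1.37) and Mapk7 (1.37) highest.

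The members share few exons and GC-rich coding sequences, features that the choice by symbol did not use. In their representative transcripts (the longest coding sequence of each gene) 5 genes, Ier2, Ier5, Jun, Junb and Jund, have 1 exon, Egr1 and Egr2 have 2, and Fos, Fosl2 and Dusp1 have 4. Over the 12604 shared protein-coding genes with such a transcript the median was 9 exons. All 10 members had a coding GC content above the median of those genes (52.7%), from 58.4% in Egr2 to 71.7% in Ier5. Coding sequences were of 666 bases in Ier2 to 1602 bases in Egr1, and 9 of the 10 were shorter than the median of 1443 bases. The 5′ untranslated region was longer than the median of 177 bases in 7 of the 10. It was longest in Egr1, at 1666 bases, followed by Jun (951 bases) and Fosl2 (903 bases), and shortest in Ier2, at 101 bases. Whole transcripts exceeded the median length in 4 of the 10, and 3′ untranslated regions did in 5 of the 10.

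Classes of shared protein-coding genes of like structure had medians near or above the all-gene median. The 291 single-exon protein-coding genes had a median of 1.08 among the deposited log2 ratios, with quartiles at 0.88 and 1.28. For the 12313 multi-exon protein-coding genes it was 1.08, with quartiles at 0.90 and 1.25. The 548 genes with 2 exons had a median of 1.12, and the 1660 with 3 or 4 exons one of 1.18. By coding GC content the median was 1.07 in the 1585 genes up to 45%, 1.06 in the 2862 at 45 to 50% and 1.07 in the 3553 at 50 to 55%. The 3243 genes at 55 to 60%, with Egr1, Fos and Egr2, had a median of 1.09. For the 1118 genes at 60 to 65%, with Ier2, Jun, Junb, Dusp1 and Fosl2, it was 1.15. The 243 genes over 65%, with Ier5 and Jund, had a median of 1.16. Restricted to 832 genes with up to 4 exons and a coding GC content of at least 58.4%, the median was 1.18. Of these, 18 genes (2.16%), 4 of them members, were as low as Ier2 or lower. The GC limit was the lowest of the members and the cutoff was the ratio of Ier2, itself a member. The 4 members were thus in that count by construction, and nothing is read from it. Of the members in these classes, Egr1, Fos, Egr2 and Ier2 lay under the lower quartile of their own exon class, and Jund and Ier5 above the upper quartile of theirs.

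**Figure D3:**
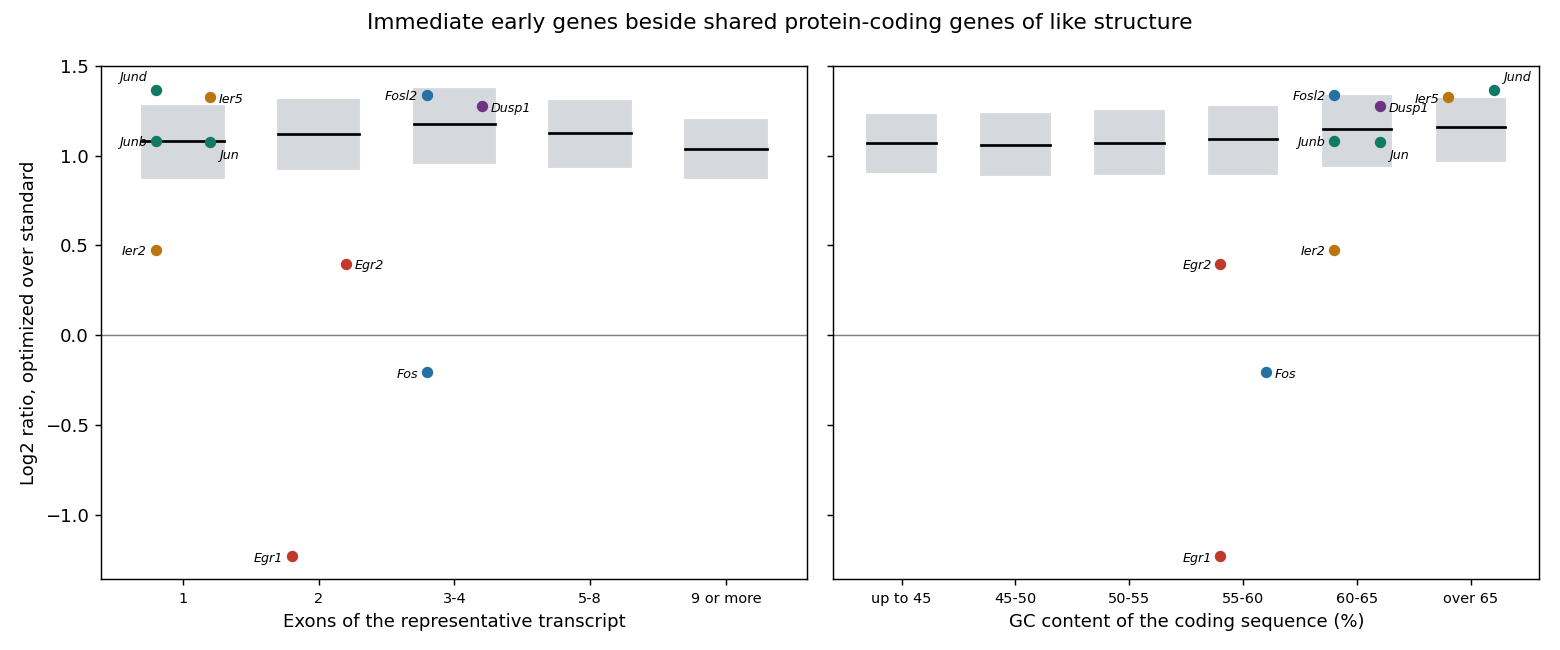
Log2 ratio (optimized over standard extraction, authors' deposited table) of the 10 members, as labelled points coloured by family, beside shared protein-coding genes grouped by exon number (left) and by GC content of the coding sequence (right, in percent). Grey boxes run from the lower to the upper quartile of each class and black lines are class medians, which stay between 1.04 and 1.18 while Egr1, Fos, Egr2 and Ier2 lie below every box.

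AU-rich elements were present in members on both sides of the all-gene median. At least 1 ATTTA in the 3′ untranslated region was found in 9 of the 10, against 67.4% of the shared protein-coding genes, whose median was 1, and Ier2, one of the low genes, had none. Fos, Jun and Dusp1 had 4 each, Egr2 had 3, Egr1, Junb and Ier5 had 2, Jund had 1 and Fosl2 had 8 in a tail of 4653 bases. The longer nonamer TTATTTATT, carried by 7.38% of the shared protein-coding genes, was found in Fos, Fosl2 and Dusp1, for which the authors' deposited table gave -0.21 (Fos), 1.34 (Fosl2) and 1.27 (Dusp1). Over shared protein-coding genes, the 930 with the nonamer had a median log2 ratio of 1.11 and the 11674 without it one of 1.08. A match of letters is a description and not evidence of a bound site.

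Promoters of 8 members were scanned in the RefSeq table of GRCm38.p6, from 250 bases before to 50 after the start site. Egr1 and Ier2, which are 2 of the 4 low genes, were not scanned. Of the 8, the promoters of Fos and Egr2, which both lay low, and of Dusp1, which lay above the median, are shown 5′ to 3′ with motif matches in capitals.
Fos (chr12:85473640-85473939, plus strand): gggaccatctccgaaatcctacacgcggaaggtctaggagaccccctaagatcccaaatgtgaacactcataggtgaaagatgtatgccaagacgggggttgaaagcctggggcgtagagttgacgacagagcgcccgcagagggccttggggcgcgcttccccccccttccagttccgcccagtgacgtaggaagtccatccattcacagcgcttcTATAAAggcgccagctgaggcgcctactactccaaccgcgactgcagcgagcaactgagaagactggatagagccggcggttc
Egr2 (chr10:67537619-67537918, plus strand): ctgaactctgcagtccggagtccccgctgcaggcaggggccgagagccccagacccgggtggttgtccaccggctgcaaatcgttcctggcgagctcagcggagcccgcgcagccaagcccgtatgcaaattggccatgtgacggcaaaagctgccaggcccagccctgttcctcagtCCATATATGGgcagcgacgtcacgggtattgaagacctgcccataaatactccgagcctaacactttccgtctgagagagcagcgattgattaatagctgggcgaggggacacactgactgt
Dusp1 (chr17:26508423-26508722, minus strand): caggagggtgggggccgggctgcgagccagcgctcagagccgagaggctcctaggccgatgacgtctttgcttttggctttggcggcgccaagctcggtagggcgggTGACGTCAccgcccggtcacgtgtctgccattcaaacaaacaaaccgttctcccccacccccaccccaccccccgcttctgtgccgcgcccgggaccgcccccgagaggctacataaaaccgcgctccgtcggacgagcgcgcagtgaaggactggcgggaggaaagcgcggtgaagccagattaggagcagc
The capitals mark a TATA box (TATAAA) in Fos that begins 33 bases before the start site. In Egr2 they mark a CArG box, the motif SRF is known to bind, 72 bases before it, and in Dusp1 a CRE (TGACGTCA), the motif of CREB, 143 bases before it. Egr2 has 5 annotated promoters, of which the one at the start of the representative transcript is shown. The start site of Dusp1 in this table lies 47 bases from that of its representative transcript.

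The scan covered both strands for the CArG box, the CRE, the AP-1 motif TGANTCA, the EGR motif GCGNGGGCG and the TATA box, each counted on its own, so that matches may overlap. A CArG box was found in 1 of the 8 scanned promoters, against 1.63% of all 32851 promoters, and a CRE in 1 of the 8, against 1.79%. An EGR motif was found in 1 of the 8, in Fosl2, against 5.55% of all promoters. A TATA box was found in 2 of the 8, Fos and Junb, against 13.6%, and an AP-1 motif in 0 of the 8, against 7.81%. The 32851 promoters are not only those of shared genes. Of the 10208 shared genes with a promoter in the table, 1294 had an EGR motif and 884 a TATA box in any promoter. A CRE was found in 373 of them, a CArG box in 152 and an AP-1 motif in 627. The shares over all promoters are thus not those of the shared genes, and the counts in the 8 single out no motif. Sites outside the windows were not looked for, so a missing match, such as that of a CArG box in Fos, holds for the window alone. The TATAAA match in Junb begins at the table's start site itself, which lies 30 bases from that of its representative transcript. The table's start sites of Jund and Fosl2 lie 1210 and 671 bases from those of their representative transcripts, so their windows may hold other sequence than the promoter in use. Among the 10208 shared genes with a promoter, the 152 with a CArG box had a median log2 ratio of 1.13 and the others 1.09. The 373 genes with a CRE had a median of 1.13 and those without it 1.09, and the 627 genes with an AP-1 motif had 1.05 against 1.10 without. Promoters with these motifs thus had medians within 0.1 of the all-gene median.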

How the data were processed

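RNA of heavy complexes of primary mouse astrocytes was sequenced in 3 optimized and 3 standard extraction libraries. The submitters' processing notes name TopHat2, featureCounts and mm10. Versions, annotation, strand setting, scaling of counts, combination of batches and the rule for listing a gene are not given in those notes. For each shared gene the authors deposited a log2 fold change of optimized against standard extraction, per the file headers; the authors' tables of genes of 1 extraction hold other columns (symbol and biotype) and no measured value. Unmatched columns of per-sample values numbered 0. Depth is unknown, so no interval is given. The plan foresaw no test where tables hold 1 ratio per gene, and none was run.

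The members and lists were chosen with earlier results of these data known. Named genes were every member, the 3 listed genes of each list farthest from the median over all shared genes on each side and the 3 neighbours in rank of the lowest and the highest member; 1 gene that this rule names is not reported here, and others are given for an overlap or, as the text says, were chosen after seeing their values. Il6, Syn1 and Syp are named because they were listed for 1 extraction alone. Identifiers were matched to GENCODE M21, whose assembly GRCm38 is that of mm10, and 13273 of 13278 shared genes matched. A representative transcript was found for 12604 of 12620 shared protein-coding genes. The list summary and the motif scan were tested on simulated data. Promoter sequences are from RefSeq (GRCm38.p6). Alternatives were the mean, other sets for the median, centring, other folds, another representative transcript and a longer AU-rich motif. Python 3.11.15, pandas 2.3.3, numpy 2.4.6 and matplotlib 3.10.9 were used.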

Additional observations from a re-analysis of the deposited data

How the results depend on the processing

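No paired analysis was possible because the deposited tables hold 1 ratio per gene and no value per library, so neither a batch block nor leaving out a batch was run; depth and the spread between libraries are the limit of every value. Of 24 alternatives, 13 left the value as reported (a count within 1.5 times it). The mean log2 ratio of the 10 members was 0.69, in place of the median of 1.08, since the mean takes in the size of the low values of Egr1 and Fos. Centring on the median over all shared genes gave a member median of -0.0092 and 0 members at least 2-fold above. Against the median of protein-coding or named genes, 5 members lay below in place of 6. The count was also 5 against the median of single-exon protein-coding genes. That median, 1.08305, equals the value of Junb, itself a single-exon gene, so Junb could not count as below it. Against the median of protein-coding genes, 9 other immediate early regulators lay below in place of 12, and the counts of the other lists did not change. List means in place of medians were 1.10 for AP-1 and related genes, 1.14 for other immediate early regulators, 1.13 for effectors, 1.06 for phosphatases, 1.17 for upstream factors and 1.14 for upstream MAP kinases. The difference of single-exon minus multi-exon medians was 0.0027, and -0.0036 with the longest transcript of each gene; the cause was not tested. The nonamer UUAUUUAUU was found in 3 members, against 9 with AUUUA, as a longer motif must match less often.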
